A study of Mus musculus with 14 samples.

Results

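The genes of the aminoacyl-tRNA synthetases, the enzymes that load each amino acid onto its tRNA, were followed in E14 mouse embryonic stem (ES) cells as these cells entered a dormant state under mTOR inhibition. Members were taken by gene symbol: the 1-letter code of an amino acid followed by ars, with or without a final 1 or 2, together with Eprs, Farsa, Farsb, Ears2, Fars2 and Pars2. Of 54446 gene identifiers in the files, 37 matched, of which 20 counted as cytosolic and 17, whose symbols end in 2, as mitochondrial. All 37 had a mean level of at least 1 and were among the 18232 genes tested. The bulk RNA-seq series holds 7 groups of 2 libraries each. Wild-type cells were collected at 0, 24, 72 and 144 h of treatment, and Tet1/2 DKO cells, in which the DNA demethylase genes Tet1 and Tet2 were targeted, at 0, 24 and 72 h. The agent was INK128, an inhibitor of the mTOR kinase (mTORi), at 200 nM, and the 0 h groups of both genotypes received none. The DKO cells were derived from the same E14 line by Cas9 cutting and single-cell cloning, so the genotype and the history of a clone cannot be told apart. Equal numbers of sorted cells gave the RNA of each library, with ERCC spike-in RNA added. The labels give no more about the replicates than their number, so the p-values measure only the spread between these libraries.

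A synthetase recognizes 1 amino acid and the tRNAs that decode it, joins them with ATP, and so sets which residue the ribosome adds at each codon. The cytosol and the mitochondrion translate separately, and most amino acids therefore have a cytosolic enzyme and a mitochondrial enzyme, both encoded in the nucleus. Gars and Kars, counted here as cytosolic by their symbols, each encode both forms, Eprs charges glutamate and proline in 1 chain, Farsa and Farsb encode the subunits of a single phenylalanine enzyme, and mitochondria make glutaminyl-tRNA without a glutamine synthetase of their own. Several cytosolic enzymes sit together in the multi-synthetase complex (Eprs, Iars, Lars, Mars, Qars, Rars, Kars and Dars). The others are outside this complex and are called free-standing here for that reason alone. ATF4, the transcription factor of the amino acid response, is known to activate many cytosolic synthetase genes through elements that pair it with C/EBP proteins.

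Because of that known element, the start regions of the members were searched for its core, TGATGNAA, on both strands of the RefSeq promoter windows (GRCm38.p6, 300 bases, from 250 before to 50 after the start). A window was at hand for 13 of the 20 cytosolic and 14 of the 17 mitochondrial genes. The core was found for 5 of the 13 cytosolic genes (38.5%), Aars, Gars, Iars, Tars and Yars, and for 0 of the 14 mitochondrial ones, against 4.51% of all 27025 genes with a window. All matches are printed below, 5′ to 3′ on the strand on which the core reads, with the core in capitals. This is the minus strand for Aars, Gars and Iars and the plus strand for Tars and Yars.
Aars, chr8:111033724-111033743, 112 bases before the start: ctcggcTGATGCAAtgctca
Aars, chr8:111033845-111033864, 10 bases after the start: gcgctcTGATGAAAagtgac
Gars, chr6:55037965-55037984, 30 bases before the start: ggtgcaTGATGAAAtagcgc
Iars, chr13:49682131-49682150, 8 bases after the start: tggaggTGATGCAAtactga
Tars, chr15:11399660-11399679, 15 bases before the start: accagcTGATGCAAcgggac
Yars, chr4:129189900-129189919, 4 bases after the start: ctcagcTGATGCAAcccgac
The palindromic E-box CACGTG, which does not overlap the core, was found for 4 of the 13 cytosolic genes (30.8%; Aars, Farsb, Iars and Tars) and for 1 of the 14 mitochondrial genes (7.14%; Ears2), against 8.09% of all genes with a window. These matches are a description of the letters and not of binding.

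The values are TPM, a transcript abundance per length that sums to a fixed total in each library, multiplied by 1 spike-in factor per library. Before scaling, every library summed to 1000000 TPM, and 28306 to 29927 genes were above 0. The factors were 2.11 and 2.11 in wild type at 0 h, then 1.07 and 1 at 144 h, and they differed most between replicates in DKO at 24 h (2.24 and 1.36). Changes are therefore also given relative to the median of all genes tested, and on the deposited TPM without the factor ("plain TPM"). Markers of pluripotent cells summed to between 2530 and 6440 scaled TPM in every library, with 0 of the 5 genes at 0, while those of fibroblasts summed to between 2.37 and 41.9, of trophectoderm to between 10.6 and 85.1, of mesendoderm to between 6.53 and 15.9 and of neuroectoderm to between 8.74 and 37.9. Markers of primitive endoderm summed to 129 and 281.5 in wild type at 24 h and to between 11.4 and 125 in the other libraries, and their part in the results at 24 h was not tested. Tet2 was lower in DKO than in wild type at 0 h (log2 change −1.935 ± 0.28 SE, adjusted p = 0.015), whereas Tet1 differed by −0.085 (adjusted p = 0.91). In bulk RNA, fewer cells of a type and less RNA per cell cannot be told apart.

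In untreated wild-type cells the cytosolic genes were expressed far above the mitochondrial ones. The 20 cytosolic genes together made up 0.303% and 0.312% of all TPM, and the mitochondrial genes without Lars2 0.0335% and 0.0342%. Kars (lysine), Gars (glycine) and Nars (asparagine) were the highest, with 653 and 618, 562 and 594, and 512 and 578 scaled TPM in the 2 libraries. Among mitochondrial genes Tars2 (threonine) stood at 108 and 99.0 and Yars2 (tyrosine) at 78.5 and 83.1, and Lars2 (leucine) ranked first only through 1 library, as described further on. Wars2 (tryptophan), at 7.53 and 8.36, was the lowest.

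Under mTORi the cytosolic synthetases fell further than the typical gene, in both genotypes, while the median of the mitochondrial ones stayed nearer to it. After 144 h in wild type, the summed cytosolic level was 36.1% of that at 0 h, and the mitochondrial sum without Lars2 was 52.8%. Calls below are genes with an adjusted p under 0.05 in limma with Benjamini-Hochberg adjustment over all genes tested, and no synthetase was called higher at any time in either genotype.

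**Figure D1:**
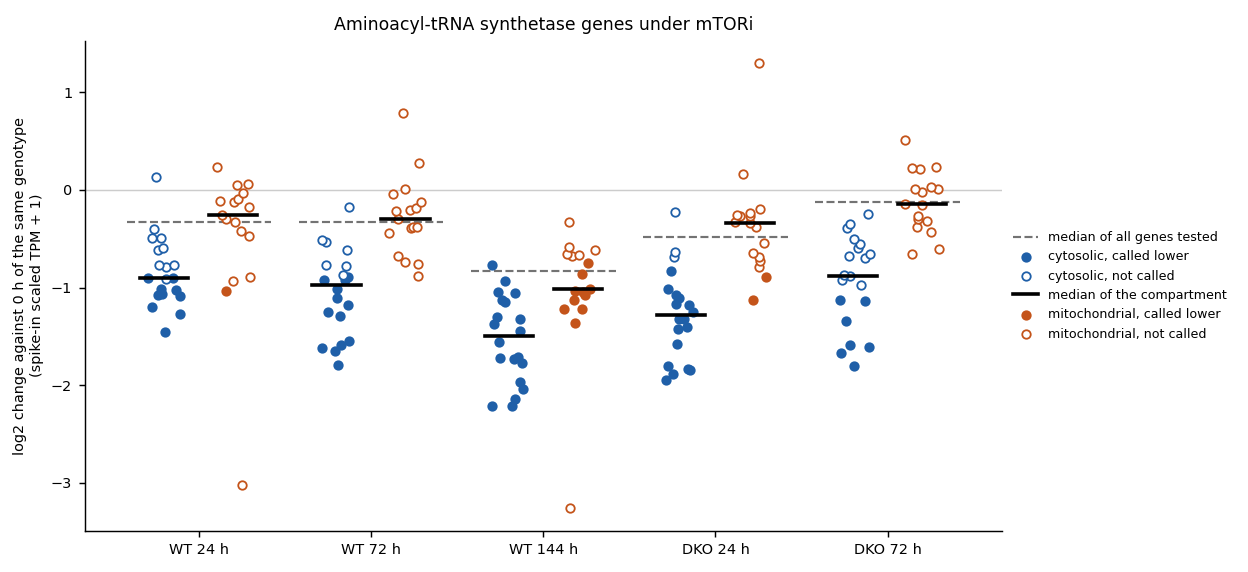
Log2 change of each synthetase gene against 0 h of its own genotype (vertical axis, spike-in scaled TPM + 1) in the 5 time comparisons (horizontal axis), with 20 cytosolic genes in blue and 17 mitochondrial genes in orange. Filled points were called lower, black bars are the medians of each compartment and dashed lines the medians of all 18232 genes. At 144 h in wild type all 20 cytosolic points are filled, with a median of −1.50 against −0.83 for all genes.

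At 24 h in wild type, 10 of 20 cytosolic and 1 of 17 mitochondrial genes were called lower. Of all genes tested, 8.73% were called lower and 1.25% higher. The median log2 change was −0.90 for the cytosolic and −0.26 for the mitochondrial genes, and −0.33 for all genes. Among the called genes Yars (tyrosine) fell the most (−1.45 ± 0.29 SE), followed by Nars (−1.27 ± 0.29), Aars (alanine, −1.20 ± 0.27) and Cars (cysteine, −1.08 ± 0.30). The single mitochondrial call was Yars2, the partner of Yars (−1.04 ± 0.29). The count rested on few libraries, since the calls were lost without the first 24 h library, and fewer members were called without either 0 h library. Fewer of all genes were called lower in those fits too. With the replicate number as a block within each genotype, 16 cytosolic and 4 mitochondrial genes were called lower, beside 25.7% of all genes.

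At 72 h in wild type, 13 cytosolic and 0 mitochondrial genes were called lower in the same limma fit. Of all genes, 7.6% were called lower and 0.697% higher. At an unadjusted p under 0.05, 4 of 17 mitochondrial genes were lower (23.5%), Aars2, Cars2 and Yars2 among them, as were 23.2% of all genes. Of the 11 members called at 24 h, 10 were called again, with Rars (arginine), Sars (serine) and Wars (tryptophan) joining them. Median log2 changes were −0.97 and −0.30 for the compartments and −0.33 for all genes. Nars (−1.79 ± 0.29), Sars (−1.65 ± 0.31), Aars (−1.62 ± 0.27), Yars (−1.59 ± 0.29) and Cars (−1.55 ± 0.30) led the falls. The calls were lost without 72 h replicate 2, and fewer members were called without replicate 1 or either 0 h library. In those fits fewer of all genes were called lower as well. The block within genotype called 17 cytosolic and 4 mitochondrial genes, beside 25.4% of all genes.

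At 144 h in wild type, all 20 cytosolic and 10 of 17 mitochondrial genes were called lower. The background was high at this time, with 50.5% of all genes called lower and 0.461% higher, so that the mitochondrial share (10 of 17) was near it. Against the all-gene median of −0.83, the cytosolic median was −1.50 (a difference of −0.67) and the mitochondrial one −1.015 (a difference of −0.18). Of the cytosolic genes, 19 of 20 lay below the all-gene median, the exception being Qars, as did 10 of 17 mitochondrial genes. All 13 members called at 72 h were called at 144 h as well. Fewer members were called on leaving out any 1 library at 0 or 144 h, as were fewer of all genes. With the block 20 cytosolic and 16 mitochondrial genes were called lower, beside 66.3% of all genes.

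The deepest falls among the cytosolic genes at 144 h in wild type belonged to Nars, Aars and Cars. Nars dropped from 512 and 578 scaled TPM at 0 h to 191 and 266 at 24 h, 187 and 131 at 72 h, then 125 and 108 at 144 h (−2.22 ± 0.29, adjusted p = 3.7e-05). Aars went from 341 and 311 to 133 and 149, then 122 and 91.4, then 74.7 and 64.4 (−2.21 ± 0.27, adjusted p = 2.2e-05). Cars went from 223 and 254 to 95.3 and 131, then 89.3 and 72.7, then 57.0 and 49.95 (−2.14 ± 0.30, adjusted p = 7.1e-05). In all 3 genes every treated library lay below both 0 h libraries, and both libraries at 144 h lay below all earlier ones. Sars (−2.04 ± 0.31) and Yars (−1.97 ± 0.29) came next. Kars and Gars, the highest at the start, lost less, and Gars was at 187 and 161 at 144 h (−1.73 ± 0.29) and Kars at 309 and 263 (−1.15 ± 0.26).

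**Figure D2:**
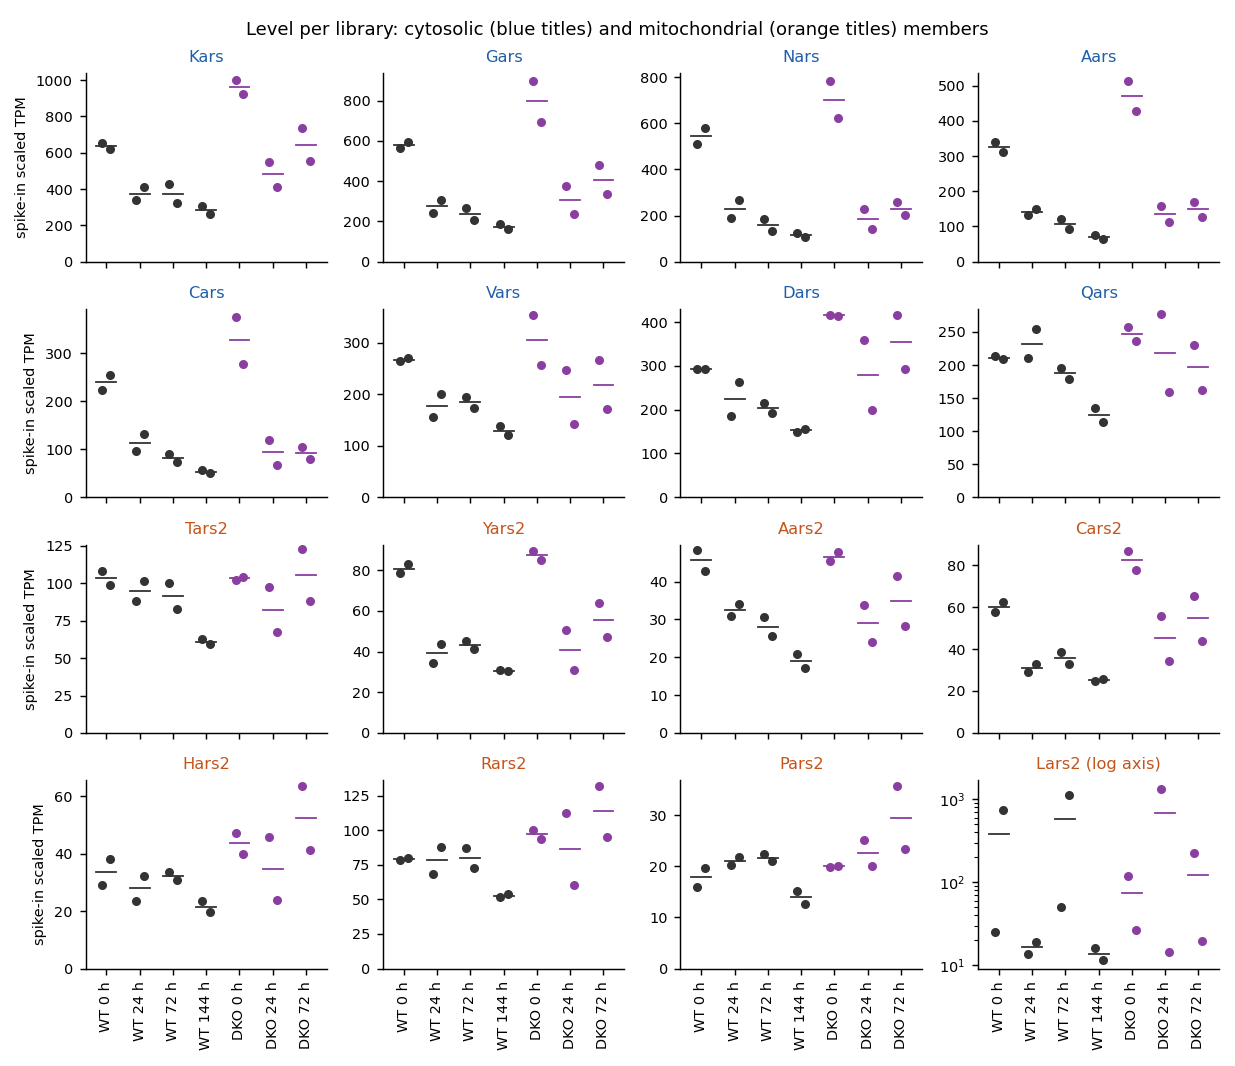
Spike-in scaled TPM (vertical axes, from 0, except Lars2 on a log axis) of 8 cytosolic and 8 mitochondrial synthetase genes in each library, by genotype and hours of mTORi, with wild type in black and DKO in purple. Points are the 2 libraries of a group and lines their mean. Nars, Aars and Cars are lower in every treated library than at 0 h, Qars at 24 h spans its 0 h level, and the 2 libraries of Lars2 differ widely in most groups.

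At 144 h in wild type, Qars (glutamine), Dars (aspartate) and Vars (valine) fell the least among cytosolic genes. Qars was at 213.5 and 209 scaled TPM at 0 h, 210.1 and 255 at 24 h, 196 and 179 at 72 h, then 135 and 113 at 144 h, so that its libraries overlapped at 24 h and no longer at 144 h. Its change at 144 h passed the test (−0.77 ± 0.28, adjusted p = 0.030) but was 0.062 above the all-gene median, and on plain TPM it turned to a rise (0.25, adjusted p = 0.038). On plain TPM Qars was also the 1 cytosolic gene called higher at 24 h (0.50, adjusted p = 0.0012) and at 72 h (0.25, adjusted p = 0.042). Dars went from 292 and 293 to 150.1 and 156.5 at 144 h (−0.93 ± 0.29, against 0.095 on plain TPM), and Vars from 264 and 270.1 to 138 and 120.2 (−1.05 ± 0.30, against −0.022 on plain TPM). In neither gene did the plain TPM change pass the test.

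The falls of mitochondrial genes at 144 h in wild type were led, Lars2 aside, by Yars2, Aars2 and Cars2. Yars2 was at 78.5 and 83.1 scaled TPM at 0 h, 34.6 and 43.6 at 24 h, 45.4 and 41.2 at 72 h, then 30.8 and 30.6 at 144 h (−1.37 ± 0.29, adjusted p = 0.0013). Aars2 (alanine) went from 48.3 and 42.9 through 30.8 and 34.2 and then 30.5 and 25.6 to 20.8 and 17.3 (−1.22 ± 0.29, adjusted p = 0.0031). Yars2 thus reached most of its fall in the first day, and its libraries at 24, 72 and 144 h lay within 30.6 to 45.4. Cars2 (cysteine) changed by −1.22 ± 0.30 at 144 h. At the other end, Pars2 (proline) was at 15.9 and 19.7 at 0 h, 20.2 and 21.8 at 24 h, 22.4 and 21.0 at 72 h, then 15.3 and 12.6 at 144 h (−0.33 ± 0.31, adjusted p = 0.36). Rars2 (arginine; 78.2 and 80.1 at 0 h, 51.45 and 53.7 at 144 h) and Hars2 (histidine; 29.0 and 38.3, then 23.4 and 19.5) did not pass the test at 144 h either, with −0.58 ± 0.30 and −0.62 ± 0.33. All 3 lay above the all-gene median at 144 h, by 0.50, 0.25 and 0.21. On plain TPM Pars2 was called higher at 24, 72 and 144 h (0.56, 0.66 and 0.615).

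Without the spike-in factor the compartment medians differed in sign at 24 and 72 h. On plain TPM at 24 h, 14 cytosolic genes were lower and 1 was higher, beside 14.1% and 15.8% of all genes, while 3 mitochondrial genes were lower and 4 higher. At 72 h the cytosolic counts were 15 lower and 1 higher (11.4% and 12.6% of all genes) and the mitochondrial 2 lower and 2 higher. At 144 h the cytosolic counts were 12 lower and 1 higher (11.7% and 15.6%) and the mitochondrial 1 lower and 4 higher. Median plain TPM changes over the 3 times were −0.53, −0.54 and −0.48 for the cytosolic genes and 0.094, 0.11 and −0.036 for the mitochondrial genes, with all-gene medians of −0.0077, 0.039 and 0.055. As a share of all TPM, the cytosolic genes went from 0.303% and 0.312% at 0 h to 0.225% and 0.225% at 24 h, 0.218% and 0.192% at 72 h, then 0.233% and 0.220% at 144 h. The mitochondrial share without Lars2 stayed between 0.0335% and 0.0366% in all 8 wild-type libraries.

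Since 1 factor multiplies all genes of a library, it cancels in a ratio of genes within the library. The ratio of summed cytosolic to summed mitochondrial TPM, taken without Lars2 (a choice made after its values were seen), was 9.03 and 9.11 in wild type at 0 h. It was 6.19 and 6.65 at 24 h, 5.99 and 5.65 at 72 h, then 6.42 and 5.99 at 144 h, so no treated library reached the 0 h values. In DKO cells it went from 10.5 and 9.56 at 0 h to 6.01 and 6.13 at 24 h, then 6.05 and 6.23 at 72 h. The drop was thus in place by 24 h in both genotypes, to between 60.5% and 70.8% of the 0 h mean. Among the treated wild-type groups the 24 h and 144 h libraries overlapped, and the 72 h libraries lay lowest. With Lars2 included the ratio was 8.72 and 4.49 in wild type at 0 h, 6.04 and 6.45 at 24 h, 5.52 and 1.77 at 72 h, then 6.17 and 5.81 at 144 h, and in DKO 9.28 and 9.27, 2.23 and 5.95, and 4.90 and 6.05, so that the wild-type groups then overlapped. With 2 libraries against 2, an exact permutation test of a single ratio cannot pass 0.05, and no test was made.

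**Figure D3:**
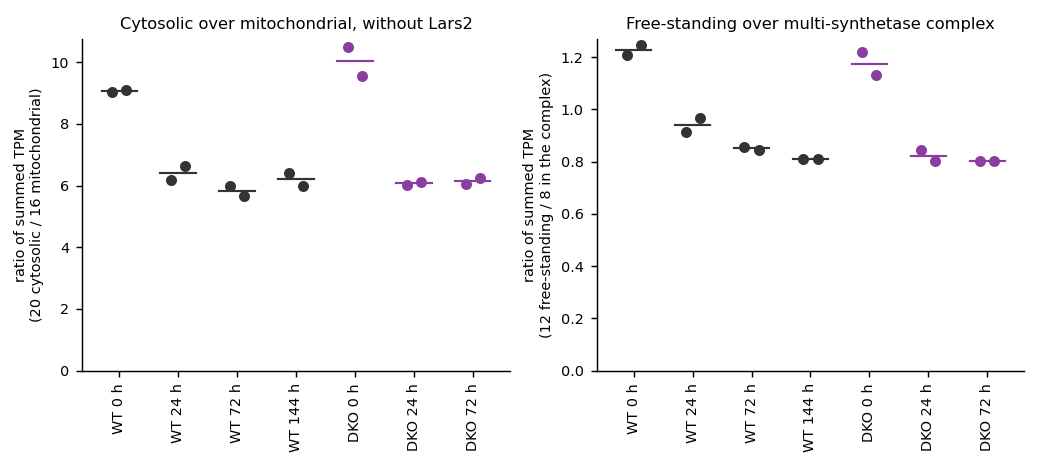
Ratios of summed TPM within each library (vertical axes, from 0) by genotype and hours of mTORi, with cytosolic over mitochondrial genes without Lars2 on the left and free-standing over complex-bound cytosolic genes on the right. Points are single libraries and lines group means. On the left the 0 h libraries lie between 9.03 and 10.5 and all treated ones between 5.65 and 6.65, and on the right the 0 h libraries lie between 1.13 and 1.25 and all treated ones between 0.802 and 0.967.

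The same shift was seen amino acid by amino acid. Each mitochondrial gene was set against the cytosolic gene of the same amino acid in the same library (Pars2 and Ears2 both against Eprs, Fars2 against the mean of Farsa and Farsb). Both libraries lay below both 0 h libraries in 14, 15 and 14 of the 17 pairs at 24, 72 and 144 h in wild type, and in 15 and 14 pairs at 24 and 72 h in DKO. Nars over Nars2 had the largest downward shift at 144 h, from 37.4 and 32.4 to 13.6 and 11.3. Aars over Aars2 went from 7.06 and 7.25 to 3.59 and 3.73, Tars over Tars2 from 2.52 and 2.73 to 1.39 and 1.30, and Sars over Sars2 from 5.20 and 5.09 to 2.70 and 2.63. Eprs over Ears2 (15.3 and 17.5, then 16.7 and 16.1) and Lars over Lars2 overlapped with their 0 h libraries at 144 h. The pairs share libraries and 2 of them share Eprs, so the counts are a description.

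**Figure D4:**
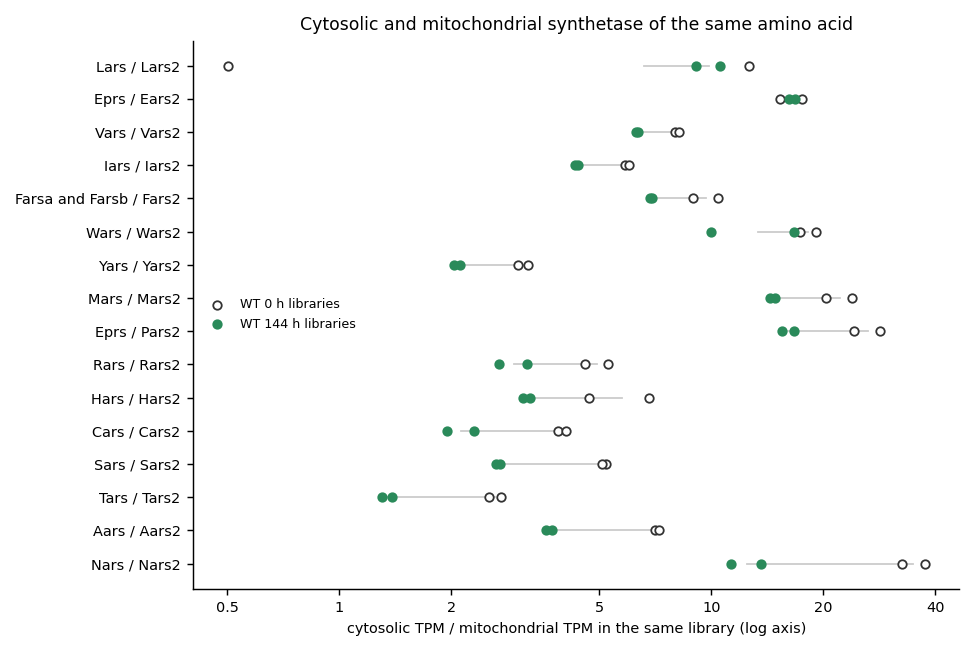
Ratio of cytosolic to mitochondrial TPM for 16 of the 17 pairs (horizontal log axis) in the 2 wild-type libraries at 0 h (open) and the 2 at 144 h (filled), ordered by the shift, with grey lines joining the group means. For 14 of the 16 pairs drawn the filled points lie to the left of both open points, Eprs over Ears2 overlaps, and Lars over Lars2 has open points at 0.503 and 12.6.

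Within the cytosol, members of the multi-synthetase complex had smaller median changes than the free-standing enzymes, a difference given as a description. At 24 h in wild type, 2 of 8 complex members and 8 of 12 others were called lower (8.73% of all genes), with median log2 changes of −0.69 and −0.99. At 72 h, 3 of 8 and 10 of 12 were called (7.6% of all genes), with medians of −0.82 and −1.27, and at 144 h all were called (50.5% of all genes), with medians of −1.14 and −1.73. With the block within genotype, 5 of 8 and 11 of 12 were called at 24 h (25.7% of all genes), then 6 of 8 and 11 of 12 at 72 h (25.4%). Mars (methionine) was the complex member that fell the most (−1.77 ± 0.29 at 144 h), and it overlaps Ddit3, a gene of the opposite strand, from whose reads it cannot be told apart where counting ignores strand. Hars and Hars2 likewise overlap on opposite strands, and Aars shares its strand with the overlapping Exosc6 and Farsb with 4833412K13Rik. The ratio of summed free-standing to summed complex TPM, in which the factor cancels, was 1.21 and 1.25 in wild type at 0 h, 0.913 and 0.967 at 24 h, 0.857 and 0.844 at 72 h, then 0.809 and 0.811 at 144 h. In DKO it was 1.22 and 1.13 at 0 h, 0.844 and 0.802 at 24 h, then 0.802 and 0.803 at 72 h. Treated and untreated libraries did not overlap in either genotype. By structural class, the 10 class II cytosolic enzymes had a median of −1.63 at 144 h and the 10 class I enzymes one of −1.35. Eprs, which charges both glutamate and proline, was counted in class I alone. The scaffolds of the complex fell too: Aimp2 and Eef1e1 passed the test at 24, 72 and 144 h (−1.60 ± 0.29 and −1.31 ± 0.30 at 144 h), but Aimp1 passed it at 144 h alone (−1.215 ± 0.27, against −0.20 at 24 h), and with the block within genotype also at 72 h (−0.71, adjusted p = 0.024 by limma). In DKO, 2 of the 3 scaffolds were called lower at 24 h (18.7% of all genes) and 0 at 72 h (2.95%), and with the block 3 (38.1%) and 2 (13.2%). Their median changes in wild type were −0.93, −0.97 and −1.31 over the 3 times, against −0.33, −0.33 and −0.83 for all genes.

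The cytosolic genes of Tet1/2 DKO cells again fell beyond the typical gene. At 24 h, 17 cytosolic and 2 mitochondrial genes were called lower, beside 18.7% of all genes called lower and 0.505% higher. Median log2 changes were −1.29 for the cytosolic and −0.34 for the mitochondrial genes, against −0.49 for all genes. All 11 members called in wild type at 24 h were called here. At 72 h, 7 cytosolic genes (Aars, Cars, Mars, Nars, Sars, Tars and Yars) and 0 mitochondrial genes were called lower, beside 2.95% of all genes called lower and 0.713% higher. At an unadjusted p under 0.05, Yars2 was the single mitochondrial gene lower at 72 h, beside 14.1% of all genes. The medians at 72 h were −0.88 and −0.15, against −0.12 for all genes, and all 20 cytosolic genes lay below the all-gene median. The 7 genes were all among those called at 24 h.

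In values, Nars went from 784 and 623 scaled TPM in DKO at 0 h to 230.2 and 142 at 24 h, then 257 and 204 at 72 h, Aars from 513 and 428 to 159 and 112 and then 171 and 126, and Cars from 376 and 277 to 119 and 67.35 and then 105 and 80.0. None of these treated libraries reached the 0 h range. Qars was at 258 and 236.5, then 277 and 159.9, then 231 and 162, and overlapped with 0 h at 24 h. Among mitochondrial genes, Yars2 went from 89.7 and 85.3 to 50.4 and 30.7 and then 63.9 and 47.2, Tars2 from 102 and 104 to 97.3 and 67.7 and then 123 and 88.0, and Pars2 from 19.8 and 20.2 to 25.2 and 20.1 and then 35.7 and 23.4. In all of these treated groups replicate 1 was the higher library, as were its spike-in factors. At 24 and 72 h, fewer members were called without DKO 0 h replicate 1, and without replicate 2 of the treated group. Fewer of all genes were called lower in these fits too. The block within genotype called 19 cytosolic and 6 mitochondrial genes at 24 h (38.1% of all genes) and 14 and 1 at 72 h (13.2%). On plain TPM, 17 cytosolic genes were lower and 1 was higher at 24 h (13.3% and 11.6% of all genes), with 2 mitochondrial genes lower and 3 higher. At 72 h the plain TPM counts were 13 and 0 cytosolic (9.06% and 17.2%) and 2 and 4 mitochondrial genes.

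Called lower in all 5 time comparisons were 6 genes, Aars, Cars, Mars, Nars, Tars and Yars. Of these, Aars, Tars and Yars carry the core printed above, Mars lacks it within its window, and no window was at hand for Cars and Nars. Gars and Iars, the other carriers, were called in 4 and 2 of the 5 comparisons. The 3 wild-type comparisons share their 0 h libraries, as do the 2 in DKO.

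In the main fit (scaled values, no block), no synthetase was called between the genotypes. With 2 libraries in a group, differences of the size given here can be missed by the test, so that 0 calls do not show equal levels. At 0 h, all 20 cytosolic and 14 of 17 mitochondrial genes had higher means in DKO, with median log2 differences of 0.42 and 0.31 against 0.29 for all genes, but limma called 0 of them, beside 0.0439% of all genes. At an unadjusted p under 0.05, Kars (0.60 ± 0.26) and Iars2 (0.65 ± 0.28) were higher, beside 7.52% of all genes. At 24 h the medians were 0.026 and 0.13, against 0.10 for all genes, with 0 members called, beside 0.0439% of all genes. At an unadjusted p under 0.05 there were also 0 members, beside 1.72% of all genes lower and 2.42% higher. With the replicate numbers of DKO swapped as a block, Lars2 was called at 24 h, beside 151 genes lower and 106 higher of 18232. At 72 h all 20 cytosolic and 15 of 17 mitochondrial genes had higher means in DKO, with medians of 0.56 and 0.47 against 0.49 for all genes. Again 0 were called, beside 0.329% of all genes, and 8 of 20 cytosolic and 4 of 17 mitochondrial genes (23.5%) were higher at an unadjusted p under 0.05, beside 22.5% of all genes. With the replicate numbers of DKO swapped as a block, 4 cytosolic and 2 mitochondrial genes were called higher and Lars2 lower at 72 h, beside 12.2% of all genes called in either direction.

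On plain TPM, 0 members were called at 0 h (0.598% of all genes), 1 at 24 h (1.37%) and 4 at 72 h (4.01%). The call at 24 h was Wars, lower in DKO (−0.66, adjusted p = 0.0078). At 72 h Eprs (0.37), Farsb (0.34) and Iars2 (0.46) were called higher and Qars lower (−0.36), the last of which was 0.049 on the scaled values.

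No member's response to mTORi passed the test for a difference between the genotypes in the main fit either. The difference of the log2 changes (DKO minus wild type) had a median at 24 h of −0.40 for the cytosolic and −0.16 for the mitochondrial genes, against −0.19 for all genes. The medians of this difference at 72 h were 0.18 and 0.20, against 0.21. In limma 0 members were called at either time, beside 0.00548% of all genes at 24 h and 0% at 72 h, and 0% at both times on plain TPM. With the replicate numbers of DKO swapped as a block, the response of Lars2 was called at 24 h, beside 36 genes lower and 26 higher of 18232. At an unadjusted p under 0.05, Sars was the 1 member at 24 h, with a larger fall in DKO, beside 0.96% of all genes. At 72 h 0 members passed, beside 0.148% of all genes lower and 0.845% higher.

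Genes that work with the synthetases moved in part alike. Atf4 fell in all 5 comparisons, with log2 changes of −1.17, −1.35 and −1.88 in wild type over the 3 times and of −2.16 and −1.87 in DKO over both times. Its scaled TPM were 435 and 391 in wild type at 0 h, then 121 and 103 at 144 h. Asns, an ATF4 target that makes asparagine, had log2 changes of 0.010 at 24 h and −0.67 at 72 h, neither past the test, and fell at 144 h (−1.49 ± 0.26). Of the 16 genes tested on the list of amino acid sensing by GCN2 and ATF4, 10, 13 and 14 were called lower in wild type over the 3 times and 13 and 12 in DKO over both, with 0 higher. Of all genes, 8.73%, 7.6%, 50.5%, 18.7% and 2.95% were called lower in these comparisons. The list medians were −1.29, −1.41, −2.05, −1.92 and −1.49, against −0.33, −0.33, −0.83, −0.49 and −0.12 for all genes. With the block within genotype the counts were 12, 14 and 14 in wild type, then 14 and 14 in DKO, beside 25.7%, 25.4%, 66.3%, 38.1% and 13.2% of all genes. On that list Nupr1 (−3.06 ± 0.42) and Chac1 (−2.33 ± 0.39), both named after their values were seen, were lower in DKO than in wild type at 24 h, beside 0.0439% of all genes called, and on plain TPM 6 genes were lower, beside 1.37%. The response of Nupr1 at 24 h differed between the genotypes (−3.90 ± 0.59, DKO minus wild type), beside 0.00548% of all genes. With the block the responses of 2 genes, Nupr1 and Chac1, differed (0.0932% of all genes), and on plain TPM 0. Ddit3, which overlaps Mars, is on that list.

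On the lists called delivery here, Eef1a1 and Tufm carry charged tRNA to the ribosome. The other genes are further translation factors, among them Eef2, Gfm1 and Gfm2. Tufm, the mitochondrial elongation factor, fell in all 5 comparisons (−1.21 at 24 h and −1.65 ± 0.27 at 144 h in wild type), from 302 and 285 scaled TPM at 0 h to 96.4 and 89.4 at 144 h. Eef1a1, its cytosolic counterpart, was at 14250 and 15340 at 0 h, then 12530 and 11440 at 144 h (−0.30 ± 0.33, adjusted p = 0.44), and on plain TPM it was called higher (0.72, adjusted p = 0.015). Eef1d, a subunit of the exchange factor of Eef1a1 that was named after its values were seen, fell from 842 and 935.5 to 278.5 and 211 at 144 h (−1.87 ± 0.30). Of the 5 cytosolic delivery genes 1, 1 and 3 were called lower at 24, 72 and 144 h in wild type, and of the 4 mitochondrial ones 1, 1 and 4, with medians at 144 h of −0.90 and −1.13. These counts stand beside 8.73%, 7.6% and 50.5% of all genes. In DKO at 24 and 72 h the delivery counts were 1 and 0 in the cytosol, and 4 and 1 in the mitochondrion, beside 18.7% and 2.95% of all genes. With the block within genotype the mitochondrial counts in wild type were 3, 3 and 4, and the cytosolic ones were again 1, 1 and 3. These stand beside 25.7%, 25.4% and 66.3% of all genes. In DKO the blocked delivery counts were 2 and 1 in the cytosol, and 4 and 1 in the mitochondrion, beside 38.1% and 13.2% of all genes. Gatb, Gatc and Qrsl1, which form the amidotransferase that makes mitochondrial glutaminyl-tRNA, were called lower at 144 h in wild type (−1.085, −1.21 and −1.41) and none of them at 24 or 72 h, though Qrsl1 passed at both earlier times with the block (adjusted p = 0.011 and 0.014 by limma). The list of mitochondrial charging accessories that holds them had 0, 0 and 5 of 6 genes called lower at 24, 72 and 144 h, and the cytosolic accessories also 0, 0 and 5 of 6. With the block they had 2, 1 and 5 (mitochondrial) and 4, 4 and 5 (cytosolic), beside 25.7%, 25.4% and 66.3% of all genes. At 144 h the accessory medians were −1.07 (mitochondrial) and −1.035 (cytosolic), against −0.83 for all genes. In DKO the accessory counts were 2 then 0 (mitochondrial) and 3 then 0 (cytosolic), beside 18.7% then 2.95% of all genes. With the block they were 3 then 1 and 5 then 0, beside 38.1% then 13.2%.

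Lars2, the mitochondrial leucine enzyme, stood apart from the other 36 members by its spread between replicates. On plain TPM it was 11.97 and 351 in wild type at 0 h, 9.51 and 10.4 at 24 h, 30.8 and 747 at 72 h, then 14.85 and 11.55 at 144 h. In DKO it was 42.55 and 11.3 at 0 h, 597 and 10.5 at 24 h, then 87.4 and 11.3 at 72 h. The 2 replicates of a group differed by up to 57.0 times, whereas among the other members the largest ratio of replicates was 1.70 and the median 1.08. Its change at 144 h (−3.26 ± 1.60) did not pass the test (adjusted p = 0.092). The mitochondrial 16S ribosomal RNA mt-Rnr2, named after its values were seen, was 30.7 and 179 plain TPM in wild type at 0 h, 2.165 and 9.21 at 24 h, 29.7 and 290.3 at 72 h, then 6.41 and 9.01 at 144 h. In DKO it was 62.75 and 15.6 at 0 h, 320.1 and 3.72 at 24 h, then 86.45 and 9.502 at 72 h. All 6 libraries with Lars2 above 20 plain TPM had mt-Rnr2 above 20 as well, as did 1 further library, and Spearman's rho over the 14 libraries was 0.88, given as a description since the values share each library's total. Ribosomal RNA was depleted from these libraries, and the part of that step in either value was not tested.

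**Figure D5:**
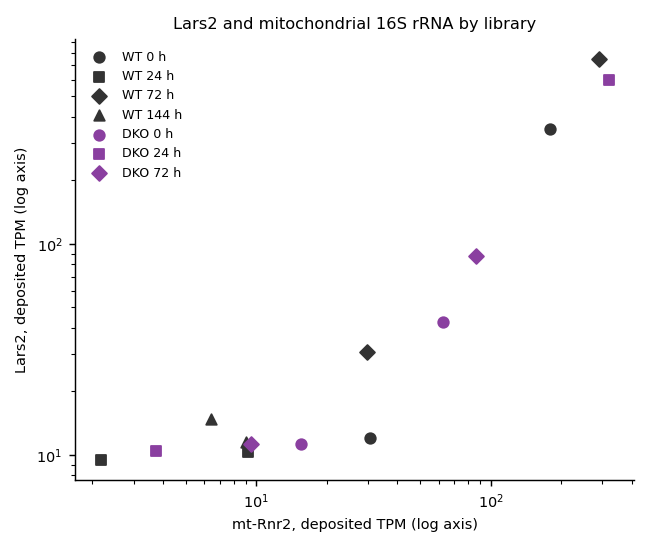
Lars2 (vertical log axis) against the mitochondrial 16S ribosomal RNA mt-Rnr2 (horizontal log axis) in plain TPM, 1 point for each of the 14 libraries, with groups by symbol and genotype by colour. The 3 libraries with Lars2 at 351, 597 and 747 have mt-Rnr2 at 179, 320.1 and 290.3, and the 8 libraries with Lars2 under 20 have mt-Rnr2 between 2.165 and 30.7.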

How the data were processed

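Bulk RNA-seq was analysed in 14 libraries of mouse ES cells, 2 in each of 7 groups of genotype and time. The authors trimmed the reads, aligned them to mm10 and quantified GENCODE VM19 genes, and deposited TPM; the submitters' processing notes name cutadapt 2.4, STAR 2.7.3a and StringTie 2.0. TPM keep no read counts, so no counting error is stated, and read depths were not used here. The strand setting is not given in the sources used here. Each library's TPM were multiplied by 1 factor, the median ratio of the spike-in normalized TPM in a supplementary table (its first 1999 entries) to the deposited TPM. Repeated gene identifiers were summed. The study used DESeq2, but counts were not in hand. Instead, log2(scaled TPM + 1) of genes with a mean of at least 1 was fitted over all 7 groups in limma 3.58.1 (R 4.3.3; empirical Bayes with a mean-variance trend), with Benjamini-Hochberg adjustment over 18232 genes in each of 10 comparisons. Fold changes on this scale understate those of low genes.

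Members and gene lists were chosen with earlier results of these data known. Values per library are given for the 3 highest members of each compartment in untreated wild type and, relative to the all-gene median, for the 3 largest falls and rises at 144 h, and list genes were named from a fixed set. The lists cover complex scaffolds, cytosolic and mitochondrial charging accessories and delivery factors, amino acid sensing, the targeted genes and cell type markers. Promoter sequences are RefSeq, GRCm38.p6.

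The study states that time points of a replicate were processed in parallel. Replicate differences correlated by 0.222 to 0.341 in 3 of 3 pairs of groups within DKO and by 0.0622 to 0.398 (5 of 6 over 0.1) within wild type. The blocked fits therefore took the numbers to pair libraries within a genotype, which the labels do not state. The main fit holds no block. Between genotypes 10 of 12 were below 0, and the highest was 0.116. Alternatives were plain TPM, a pseudocount of 0.1, no filter, replicate blocks and leaving out each library. The values of 1 member are not reported here, though it stays in the counts, medians and sums.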

Additional observations from a re-analysis of the deposited data

How the results depend on the processing

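Of 80 calls of a member in a comparison, 78 held with a pseudocount of 0.1, 54 without the filter on low values, and 80 with a replicate block across all libraries, within each genotype or with numbers crossed between the genotypes; 55 were lost on leaving out at least 1 library and 0 changed sign there. On plain TPM 63 held, 13 were lost and 4 reversed, all at 144 h in wild type (Dars 0.095, Qars 0.25, Fars2 0.11, Tars2 0.26). Called members at 24 h in wild type numbered 11, against 22 on plain TPM, 2 without the filter, 20 with the block within genotype, 18 with crossed numbers and 0 to 8 on leaving out 1 library. At 72 h they numbered 13 (1385 genes lower), against 20 on plain TPM (2080 lower and 2301 higher). They became 5 without the filter (639 of 38890 lower) and 21 with the block within genotype (4633 lower). At 144 h they numbered 30, against 18 on plain TPM and 17 to 24 without 1 library. In DKO the 19 at 24 h became 7 to 27 without 1 library, and the 7 at 72 h became 19 on plain TPM, 4 without the filter, 15 with the block within genotype, 11 with crossed numbers and 1 to 6 without 1 library. Between genotypes, 0 became 1 at 24 h and 4 at 72 h on plain TPM, beside 1.37% and 4.01% of all genes. With crossed numbers they became 1 (Lars2, beside 151 genes lower and 106 higher) and 7 (81 lower and 2136 higher). The response at 24 h became 1 with crossed numbers (Lars2, beside 36 genes lower and 26 higher). The block within genotype leaves no test between genotypes. With that block called members numbered 36 at 144 h in wild type (66.3% of all genes lower) and 25 at 24 h in DKO (38.1%). Several counts of the partner lists changed too. The log2 change of the cytosolic to mitochondrial ratio was −0.51 at 24 h and −0.59 at 144 h in wild type without the highest member of each compartment, and −0.50 and −0.55 without Lars2, an alternative chosen after seeing the data. For the ratio with all members, Lars2 included, the range on leaving out 1 library in wild type was −0.48 to 0.47 at 24 h, −1.825 to −0.18 at 72 h, and −0.54 to 0.41 at 144 h, and in DKO −2.06 to −0.64 (24 h) and −0.92 to −0.62 (72 h). A library left out leaves 1 library in its group, whose spread is taken from the other groups. The cause of these changes was not tested.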
